A study of Mus musculus with 6 samples.

Results

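Tcf7, Lef1, Bach2, Satb1, Foxo1, Foxo3, Foxp1, Id2 and Id3 are 9 genes for transcription factors and their inhibitors that are known for roles in naive and memory-like T cell states, or in the exit from them. They were taken by symbol from a table of 54532 genes, in which each symbol had 1 entry. Their read counts are described here in regulatory T (Treg) cells, Th17 cells and naive T cells, with 2 RNA sequencing libraries per type and 6 in all. All libraries came from wild-type mice with thymus as the labelled tissue and no treatment, with no age, strain or sex stated. Nor do the labels state whether Treg and Th17 cells were isolated as such or made in culture, so a difference between types includes any difference in how they were obtained. Because no label tells whether the pair of libraries of 1 type had separate animals or cultures as their source, the p-values reflect library-to-library spread alone, and that spread may be technical.

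Tcf7 encodes TCF-1 and Lef1 its close relative LEF-1, high mobility group proteins that bind DNA with beta-catenin or Groucho-type corepressors and uphold T cell identity. Bach2 is a repressor that pairs with small Maf proteins and restrains effector programmes, and Satb1 is a chromatin organiser abundant in thymocytes. Foxo1 and Foxo3 are forkhead factors that the kinase Akt holds in the cytoplasm and that drive naive homing and survival genes, while Foxp1 is a forkhead factor of quiescence. Id2 and Id3 encode helix-loop-helix proteins without a DNA-binding region, which capture E proteins and keep them off DNA. Id2 is linked to effector cells and Id3 to naive, memory and regulatory cells.

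Total counts ranged from 16458939 to 17901331 per library. Of all genes 15543 passed the filter on low counts and were tested, and these include each of the 9 factors. The least abundant, Id3, stood at the 64.7th percentile of tested genes and Satb1 at the 99.2th percentile. Pearson's r of log2 CPM (CPM being the count scaled by library size) was 0.982 to 0.986 between the libraries of 1 type and 0.796 to 0.890 between types, computed across genes, which are not independent of each other. The type labels fitted most of their markers: Foxp3 averaged 1009 CPM in Treg libraries, 0.697 in Th17 and 14.3 in naive libraries, and Il17f averaged 2205 CPM in Th17 libraries, with 1 count over both Treg and 8 over both naive libraries. Of 8 Treg markers, 6 were higher and 1 lower in Treg against Th17 cells, and of 8 Th17 markers 8 were lower. Over all tested genes 19.0% were higher and 19.4% lower in that comparison. Ctla4 averaged 201 CPM in Treg and 289.9 CPM in Th17 libraries, Tnfrsf18 82.4 and 80.4, and Il2ra 2547 and 1715. Of 8 thymocyte markers, Rag1, Rag2 and Ptcra had 0 counts in the naive libraries, although the labelled tissue is thymus. Over both Treg libraries they had 83, 5 and 2 counts (Rag1 at 2.32 ± 0.117 CPM), and over both Th17 libraries 6, 0 and 0 counts. Dntt, Cd8b1, Cd1d1 and Themis were instead highest in naive libraries, with 295, 637, 1663 and 6831 counts over both. These had 8, 354, 620 and 2256 counts over both Treg libraries, and 180, 361, 69 and 3541 over both Th17 libraries. Cd8a had 407 counts over both Treg libraries and 101 in each other type.

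The 9 factors did not move as a block. Against naive cells, Lef1 and Tcf7 fell in both Treg and Th17 cells, Bach2 and Foxo3 rose in both, and Foxo1 was not called in either. Satb1, Foxp1 and Id2 were called in opposite directions against naive cells in the 2 types, and Id3 was called in Th17 cells alone. In Th17 against naive cells, 4 of 9 factors were higher and 4 lower, where 57.7% of all tested genes were called (29.3% higher, 28.4% lower). In Treg against naive cells, 3 were higher and 4 lower, against 43.4% of tested genes called (23.6% higher, 19.9% lower). In Treg against Th17 cells, 4 were higher and 3 lower, against 38.4% of tested genes called (19.0% higher, 19.4% lower). Among the 5493 tested genes at least as abundant as Id3, the shares called were 62.6%, 48.2% and 42.6% in the same order. The median log2 fold change of the 9 factors was -0.07, -0.09 and -0.01, beside -0.03, -0.00458 and 0.02 over all tested genes. The median absolute log2 fold change was 0.94, 0.90 and 1.12, beside 0.84, 0.61 and 0.53 over all tested genes. Treg and Th17 cells share the naive libraries in their comparisons, so the 2 sets of changes are not independent.

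**Figure D1:**
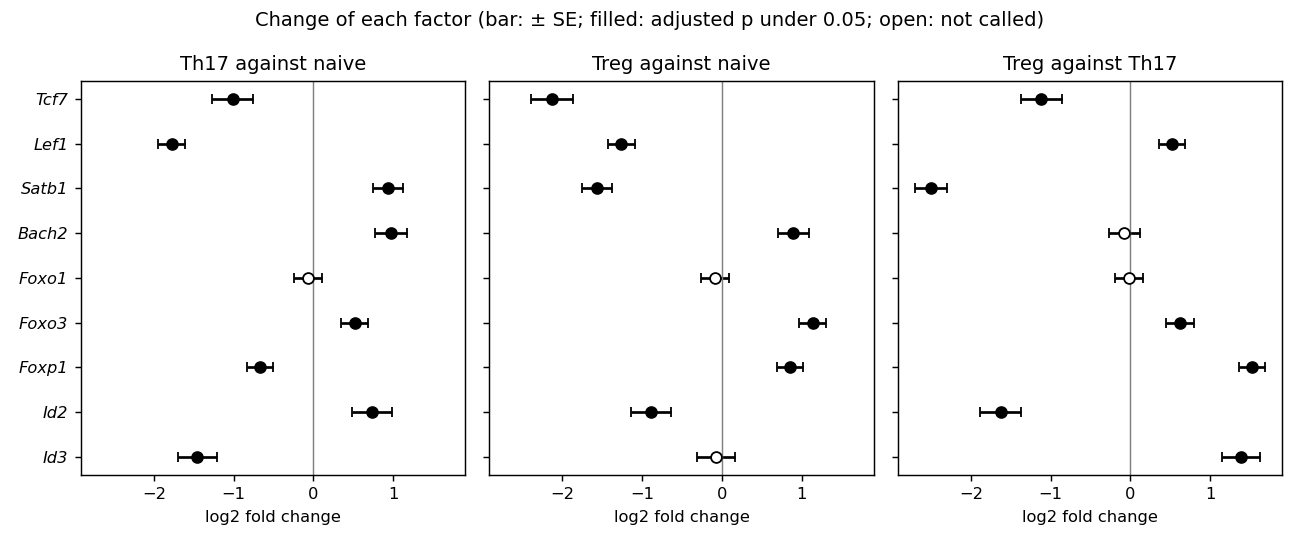
Log2 fold change of each factor (horizontal axis) in Th17 against naive, Treg against naive and Treg against Th17 cells, with bars of 1 SE, filled points for adjusted p under 0.05 and open points for the rest. Foxo1 lies near 0 in every comparison, while Satb1 stands at 0.94 (Th17 against naive) and -1.56 (Treg against naive).

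The promoters of the factors show the sequence around their starts. RefSeq lists 19 promoters for the 9 genes on GRCm38.p6, each from 250 bases before to 50 bases after a start. They were searched on both strands for the E box CANNTG, which E proteins bind, its form CACCTG, the TCF and LEF motif CTTTGAT, the forkhead motif GTAAACA and the AP-1 or Bach core TGANTCA. Every CACCTG match is also an E box match. Some promoters of Lef1, and some of Satb1, overlap each other, so a match in the shared letters counts more than once. The E box was found in 15 of the 19 promoters (72.3% of all 32851 RefSeq promoters), CACCTG in 5 (20.2% of all), the forkhead motif in 1 (3.65% of all), and CTTTGAT and TGANTCA in 0 (3.73% and 7.81% of all). CACCTG lay in promoters of Tcf7, Lef1, Satb1 and Foxp1. One promoter of each is printed, since they hold the matches, 5′ to 3′ on the gene's strand, with CACCTG (or CAGGTG, its other strand) and GTAAACA in capitals. A match is a description of the letters and not a measured site.
Tcf7, chr11:52282546-52282845, minus strand: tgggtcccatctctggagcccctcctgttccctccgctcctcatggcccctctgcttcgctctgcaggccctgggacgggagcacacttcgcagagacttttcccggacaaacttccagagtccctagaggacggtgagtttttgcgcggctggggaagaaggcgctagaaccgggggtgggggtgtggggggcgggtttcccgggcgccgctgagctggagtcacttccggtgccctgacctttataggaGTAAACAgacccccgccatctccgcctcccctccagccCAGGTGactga
Lef1, chr3:131110073-131110372, plus strand: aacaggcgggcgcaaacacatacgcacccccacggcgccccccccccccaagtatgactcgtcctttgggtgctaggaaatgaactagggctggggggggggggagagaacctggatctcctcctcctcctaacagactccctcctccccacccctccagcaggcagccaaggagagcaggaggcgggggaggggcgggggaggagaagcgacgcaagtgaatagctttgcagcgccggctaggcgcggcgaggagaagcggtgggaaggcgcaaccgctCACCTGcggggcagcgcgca
Satb1, chr17:51833241-51833540, minus strand: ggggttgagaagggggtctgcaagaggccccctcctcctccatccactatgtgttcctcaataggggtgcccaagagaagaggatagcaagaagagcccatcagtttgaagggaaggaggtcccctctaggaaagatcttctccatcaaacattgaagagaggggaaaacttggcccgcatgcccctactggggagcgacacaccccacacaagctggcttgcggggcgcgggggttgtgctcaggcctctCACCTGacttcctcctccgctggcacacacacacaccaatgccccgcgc
Foxp1, chr6:99028249-99028548, minus strand: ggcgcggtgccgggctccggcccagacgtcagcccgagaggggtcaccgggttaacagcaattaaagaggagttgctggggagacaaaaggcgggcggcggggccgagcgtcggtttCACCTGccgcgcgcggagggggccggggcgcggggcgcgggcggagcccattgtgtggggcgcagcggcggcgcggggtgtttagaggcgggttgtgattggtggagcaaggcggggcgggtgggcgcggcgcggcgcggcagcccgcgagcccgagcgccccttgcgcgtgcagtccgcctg
In the Tcf7 promoter the forkhead letters and the E box both lie in the 50 bases after the start. The Id2 promoter held 1 other E box and the Id3 promoter 0.

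Tcf7 (chromosome 11, 52252371 to 52283014, mm10) had 313 and 221 CPM in Treg libraries 1 and 5, 432 and 728 CPM in Th17 libraries, and 1302 and 1039 CPM in naive libraries. The 3 types did not overlap, with naive libraries highest and Treg libraries lowest. Tcf7 fell in Treg against naive cells (log2 fold change -2.13 ± 0.26 (SE), edgeR quasi-likelihood adjusted p = 1.35e-05) and in Th17 against naive cells (-1.01 ± 0.25, adjusted p = 0.00332). It was also lower in Treg than in Th17 cells (-1.12 ± 0.25, adjusted p = 0.00287). The call of Th17 against naive cells ended without Th17 library 1 (-0.67, adjusted p = 0.0563). The call of Treg against Th17 cells ended without Treg library 5 (-0.90, adjusted p = 0.0573) or Th17 library 5 (-0.69, adjusted p = 0.0561). Counts per gene do not separate the long and short forms of TCF-1, of which the long form binds beta-catenin.

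Lef1 (chromosome 3, 131110471 to 131224356) had 218 and 223 CPM in Treg libraries, 141 and 167 CPM in Th17 libraries, and 511 and 545 CPM in naive libraries. Its order differed from that of Tcf7, with Th17 libraries lowest. Lef1 fell in Th17 against naive cells (log2 fold change -1.78 ± 0.17 (SE), adjusted p = 5.9e-07) and in Treg against naive cells (-1.26 ± 0.17, adjusted p = 2.79e-05). It was higher in Treg than in Th17 cells (0.52 ± 0.17, adjusted p = 0.0227), a call that ended without Treg library 1 (0.54, adjusted p = 0.115), Treg library 5 (0.49, adjusted p = 0.144) or Th17 library 1 (0.40, adjusted p = 0.233). The fold change itself stayed positive in these smaller fits. The Tcf7 to Lef1 ratio within a library, in reads per kilobase, was 4.81 and 3.32 in Treg libraries, 10.3 and 14.6 in Th17 libraries, and 8.53 and 6.38 in naive libraries. Such a ratio does not depend on scaling between libraries. It was lowest in Treg and highest in Th17 libraries without overlap, but an exact two-sided permutation test of this ratio with 2 against 2 libraries cannot go below p = 0.333.

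Of 18 genes for cofactors of TCF-1 and LEF-1 and for Wnt feedback, 16 were tested, with 4 higher and 4 lower in Th17 against naive cells, 4 higher and 3 lower in Treg against naive cells, and 5 higher and 2 lower in Treg against Th17 cells. Over all tested genes 57.7%, 43.4% and 38.4% were called in these comparisons, so the list stood near the background. Its median log2 fold changes were 0.24, 0.15 and 0.08. Axin2, a feedback inhibitor and common reporter of beta-catenin signalling, fell in Th17 cells (10.2 ± 1.88 CPM in Th17 and 50.7 ± 4.22 CPM in naive cells, SD, n = 2 each) and in Treg cells (14.8 ± 1.68 CPM). Jup, which encodes plakoglobin, rose in Treg cells (94.8 ± 9.15 CPM in Treg and 4.47 ± 0.0679 CPM in naive cells) and less in Th17 cells (20.2 ± 6.09 CPM). It was higher in Treg than in Th17 cells (log2 fold change 2.23 ± 0.21, edgeR adjusted p = 1.24e-06). Bcl9l, a beta-catenin coactivator, was also higher in Treg cells (174 ± 23.2 CPM) than in Th17 cells (50.1 ± 5.51 CPM), with 168 ± 20.8 CPM in naive cells. Ctnnbip1, an inhibitor of the contact between beta-catenin and TCF factors, rose in Th17 cells (8.87 ± 2.29 CPM in Th17 and 0.593 ± 0.349 CPM in naive cells) and in Treg cells (3.02 ± 1.68 CPM).

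**Figure D2:**
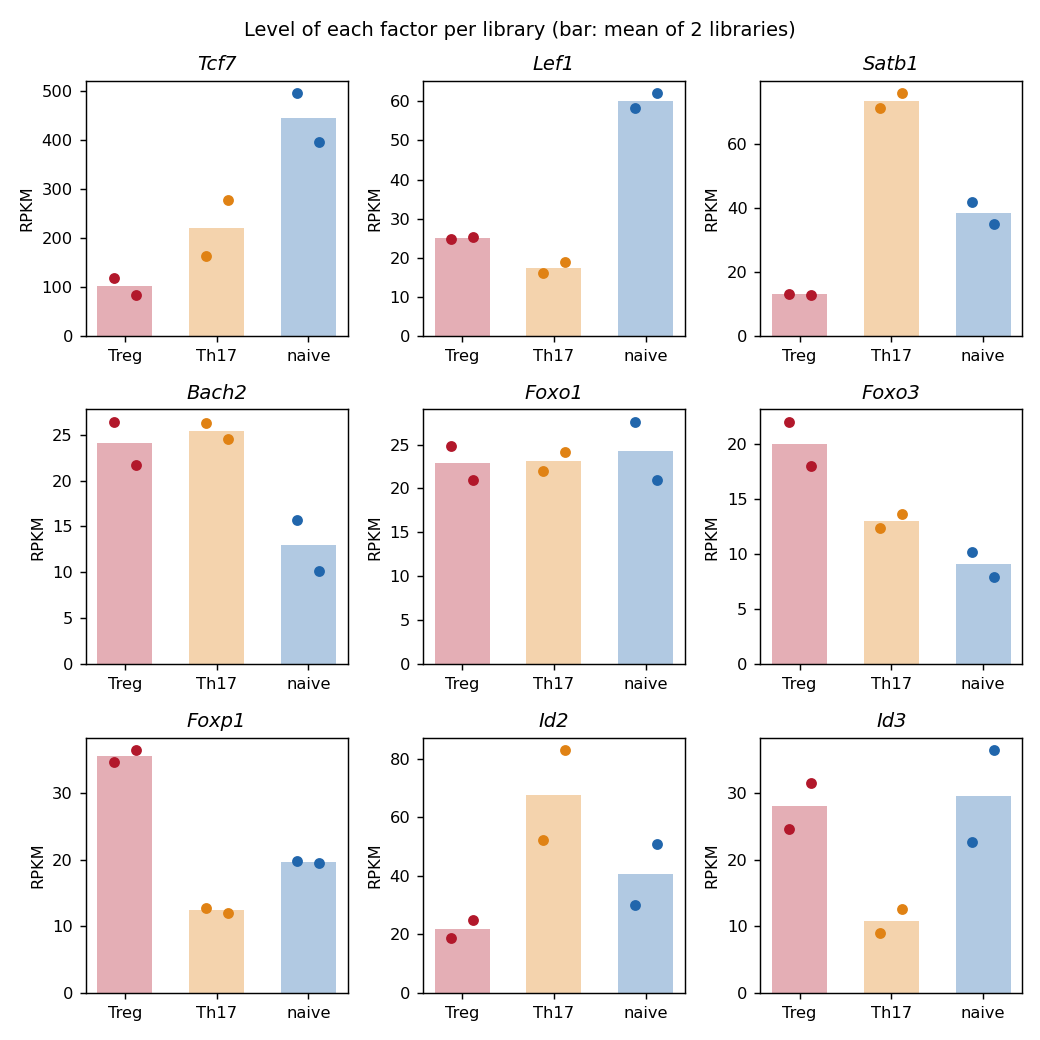
RPKM of each factor (vertical axis, linear from 0, a scale of its own per panel) in Treg, Th17 and naive libraries, with 1 point per library (library 1 left, library 5 right) and bars for the mean of 2 libraries. Tcf7 and Lef1 are highest in naive libraries, Satb1 and Id2 in Th17 libraries, and Foxp1 and Foxo3 in Treg libraries, while the Foxo1 types overlap.

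Satb1 (chromosome 17, 51736187 to 51833290) had 250.0 and 246 CPM in Treg libraries, 1357 and 1447 CPM in Th17 libraries, and 795 and 671 CPM in naive libraries. The types did not overlap, and Th17 libraries stood highest. Satb1 rose in Th17 against naive cells (log2 fold change 0.94 ± 0.19 (SE), adjusted p = 0.000641), fell in Treg against naive cells (-1.56 ± 0.19, adjusted p = 1.27e-05) and was 5.66-fold lower in Treg than in Th17 cells (-2.50 ± 0.20, adjusted p = 1.92e-07). The last is the largest difference of any of the 9 factors, and it lay between -2.55 and -2.45 under 12 alternatives.

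Bach2 (chromosome 4, 32238804 to 32586108) had 263 and 216 CPM in Treg libraries, 261 and 244 CPM in Th17 libraries, and 156 and 101 CPM in naive libraries. Treg and Th17 libraries overlapped and both lay above the naive ones. Bach2 rose in Th17 cells (log2 fold change 0.97 ± 0.20 (SE), adjusted p = 0.000786) and in Treg cells (0.90 ± 0.20, adjusted p = 0.00224) against naive cells. Between Treg and Th17 cells it was not called (-0.08 ± 0.20, adjusted p = 0.800), with a 95% interval of -0.50 to 0.35. Among 7 genes for the small Maf partners and the related CNC factors, 6 were tested, with 2 higher and 2 lower in Th17 and 3 higher and 1 lower in Treg against naive cells, and 2 higher and 1 lower in Treg against Th17 cells. Their median log2 fold changes were 0.36, 0.51 and -0.12. Across all tested genes, 57.7%, 43.4% and 38.4% were called either way in these comparisons. Mafg, a small Maf partner, rose in Th17 cells (133 ± 25.9 CPM in Th17 and 21.5 ± 4.40 CPM in naive cells) and in Treg cells (118 ± 15.8 CPM). Mafk, another small Maf, fell in Th17 cells (37.9 ± 3.66 CPM in Th17 and 65.7 ± 8.55 CPM in naive cells) and was higher in Treg (82.8 ± 9.10 CPM) than in Th17 cells. Bach1, the relative of Bach2, fell in Th17 cells (11.0 ± 1.20 CPM in Th17 and 37.7 ± 2.91 CPM in naive cells) and rose in Treg cells (56.8 ± 1.71 CPM).

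The forkhead gene Foxo1 (chromosome 3, 52268336 to 52353221) had 215 and 182 CPM in Treg libraries, 191 and 210.1 CPM in Th17 libraries, and 239 and 182 CPM in naive libraries. The types overlapped fully. No comparison was called: Treg against naive -0.09 ± 0.17 (SE, adjusted p = 0.718, 95% interval -0.46 to 0.29), Th17 against naive -0.07 ± 0.17 (adjusted p = 0.740, interval -0.45 to 0.30) and Treg against Th17 -0.01 ± 0.17 (adjusted p = 0.961, interval -0.39 to 0.36), all log2 fold changes. Its sign against naive cells turned positive with scaling by total count. RNA levels do not show where the Foxo1 protein lies in the cell, which is how Akt controls it.

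Foxo3 (chromosome 10, 42181841 to 42276755) had 166 and 137 CPM in Treg libraries, 94.2 and 103 CPM in Th17 libraries, and 77.5 and 60.2 CPM in naive libraries. The types did not overlap and Treg libraries were highest. Foxo3 rose in Treg against naive cells (log2 fold change 1.14 ± 0.17 (SE), adjusted p = 9.84e-05). It rose less in Th17 against naive cells (0.52 ± 0.17, adjusted p = 0.0186), a call that ended without Th17 library 5 (0.46, adjusted p = 0.0965) or naive library 5 (0.35, adjusted p = 0.121). It was higher in Treg than in Th17 cells (0.62 ± 0.17, adjusted p = 0.00952), a call that ended without Treg library 1 (0.48, adjusted p = 0.130) or Th17 library 1 (0.56, adjusted p = 0.0845). The Foxo1 to Foxo3 ratio, in reads per kilobase, was 1.13 and 1.17 in Treg libraries, 1.77 and 1.79 in Th17 libraries, and 2.70 and 2.64 in naive libraries. The libraries of a type lay close together in this ratio, and the types did not overlap.

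Foxp1 (chromosome 6, 98925338 to 99522721) had 477 and 501 CPM in Treg libraries, 176 and 165 CPM in Th17 libraries, and 273 and 268 CPM in naive libraries. Treg libraries were highest and Th17 libraries lowest, without overlap. Foxp1 rose in Treg against naive cells (log2 fold change 0.85 ± 0.16 (SE), adjusted p = 0.000614), fell in Th17 against naive cells (-0.67 ± 0.16, adjusted p = 0.00245) and was 2.87-fold higher in Treg than in Th17 cells (1.52 ± 0.16, adjusted p = 4.01e-06). Its relative Foxp4 also rose in Treg cells (157 ± 28.1 CPM in Treg and 70.3 ± 12.2 CPM in naive cells), as did Foxo4 (115 ± 11.0 CPM in Treg and 61.1 ± 6.36 CPM in naive cells) and the lineage factor Foxp3. Foxo4 fell in Th17 cells (35.6 ± 0.925 CPM), and Foxp4 was at 84.2 ± 1.64 CPM there and not called against naive cells. Foxo6 had 44 counts over both Treg libraries, 2 over Th17 and 0 over naive libraries. Of 11 relatives of the 9 factors, 7 were tested: 2 were higher and 3 lower in Th17 against naive cells, 5 higher and 0 lower in Treg against naive cells, and 5 higher and 1 lower in Treg against Th17 cells. Beside them, 57.7%, 43.4% and 38.4% of all tested genes were called either way in the same order.

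Of 18 tested targets of FoxO factors, 1 was higher and 13 lower in Th17 against naive cells (median log2 fold change -1.57), where 29.3% of all tested genes were higher and 28.4% lower. In Treg against naive cells 3 were higher and 10 lower (median -0.75), beside 23.6% and 19.9% of all tested genes. In Treg against Th17 cells 10 were higher and 2 lower (median 0.87), beside 19.0% and 19.4% of all tested genes. Klf2, which drives exit from lymphoid tissue, averaged 187 ± 27.8 CPM in Treg, 4.64 ± 1.11 CPM in Th17 and 411 ± 6.51 CPM in naive cells (SD, n = 2 each). Il7r, the interleukin-7 receptor chain, was lower in Treg than in Th17 cells, at 50.7 ± 6.36 CPM in Treg, 264 ± 100.5 CPM in Th17 and 817 ± 79.7 CPM in naive cells. The insulin receptor substrate gene Irs2 (102 ± 1.67 CPM in Treg and 14.4 ± 3.80 CPM in naive cells) and the ubiquitin ligase gene Fbxo32 (71.9 ± 1.93 CPM in Treg and 25.8 ± 3.81 CPM in naive cells) rose in Treg cells, with 20.0 ± 8.09 and 24.9 ± 2.26 CPM in Th17 cells. Sesn3, which encodes a sestrin, was the 1 target that rose in Th17 cells (642 ± 164 CPM in Th17 and 310.1 ± 29.7 CPM in naive cells), with 332 ± 2.70 CPM in Treg cells.

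Among 15 kinases and regulators upstream of FoxO factors, 2 were higher and 5 lower in Th17 against naive cells, 3 higher and 4 lower in Treg against naive cells, and 4 higher and 2 lower in Treg against Th17 cells. Their median log2 fold changes were -0.21, -0.01 and 0.17. Across all tested genes, 57.7%, 43.4% and 38.4% were called either way in these comparisons. Akt1, the kinase that excludes FoxO factors from the nucleus, rose in Th17 cells (309 ± 29.1 CPM in Th17 and 102 ± 18.4 CPM in naive cells) and in Treg cells (207 ± 2.83 CPM).

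Id2 (chromosome 12, 25093799 to 25097140) had 45.4 and 61.0 CPM in Treg libraries, 127 and 202 CPM in Th17 libraries, and 73.1 and 124 CPM in naive libraries. The types did not overlap, but the libraries of a type lay far apart. Id2 was lower in Treg than in Th17 cells (log2 fold change -1.63 ± 0.26 (SE), adjusted p = 0.000162). It rose in Th17 against naive cells (0.74 ± 0.25, adjusted p = 0.0214), a call that ended without Th17 library 5 (0.38, adjusted p = 0.258) or naive library 1 (0.40, adjusted p = 0.224). It fell in Treg against naive cells (-0.89 ± 0.26, adjusted p = 0.0114), a call that ended without Treg library 1 (-0.68, adjusted p = 0.129) or naive library 5 (-0.45, adjusted p = 0.214).

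Id3 (chromosome 4, 136143497 to 136145755) had 44.2 and 56.3 CPM in Treg libraries, 16.0 and 22.5 CPM in Th17 libraries, and 40.6 and 65.3 CPM in naive libraries. Th17 libraries lay below all others, and Treg and naive libraries overlapped. Id3 fell in Th17 against naive cells (log2 fold change -1.46 ± 0.24 (SE), adjusted p = 0.000132) and was higher in Treg than in Th17 cells (1.38 ± 0.24, adjusted p = 0.000371). Treg against naive cells was not called (-0.07 ± 0.23, adjusted p = 0.827, 95% interval -0.57 to 0.43).

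Id2 and Id3 were each higher in library 5 than in library 1 of every type, so their ratio was steadier than either level. The Id2 to Id3 ratio, in reads per kilobase, was 0.756 and 0.796 in Treg libraries, 5.83 and 6.59 in Th17 libraries, and 1.32 and 1.40 in naive libraries. Id3 thus exceeded Id2 per kilobase in Treg libraries, and Id2 exceeded Id3 in Th17 and naive libraries. What the numbers 1 and 5 mark was not stated.

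**Figure D3:**
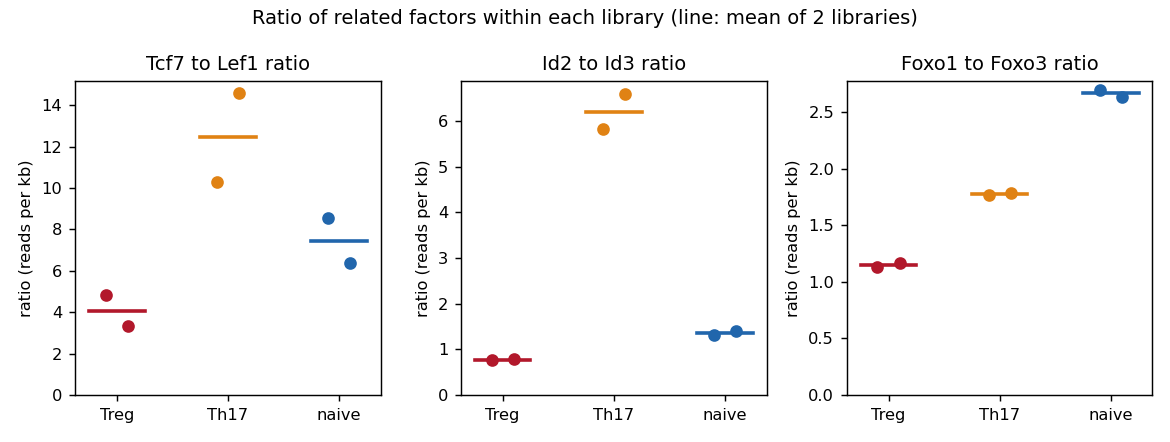
Ratio of 2 related factors within each library, in reads per kilobase of gene length (vertical axis, linear from 0), for Treg, Th17 and naive libraries, with 1 point per library and a line at the mean of 2 libraries. The Id2 to Id3 ratio averages 0.776 in Treg, 6.21 in Th17 and 1.36 in naive libraries, and the Foxo1 to Foxo3 ratio 1.15, 1.78 and 2.67.

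The E proteins that Id2 and Id3 capture, with their partners, form a list of 8 genes of which 7 were tested. In Th17 against naive cells 3 were higher and 4 lower, in Treg against naive cells 2 higher and 2 lower, and in Treg against Th17 cells 2 higher and 2 lower. The shares of all tested genes called either way were 57.7%, 43.4% and 38.4% in the same order. Tcf3, which encodes the E2A proteins, rose against naive cells in both types (168 ± 18.7 CPM in Treg, 186 ± 22.8 CPM in Th17 and 108 ± 22.1 CPM in naive cells). Tcf12, which encodes HEB, rose in Treg and fell in Th17 against naive cells (173 ± 3.20 CPM in Treg, 98.4 ± 5.45 CPM in Th17 and 131 ± 2.43 CPM in naive cells). Tcf4, which encodes E2-2, was low throughout and highest in Th17 cells (7.25 ± 0.836 CPM in Treg, 22.4 ± 0.399 CPM in Th17 and 4.80 ± 0.525 CPM in naive cells). The haematopoietic cofactor genes Lmo2 and Cbfa2t3 had 8 and 1 counts in Treg, 1 and 0 in Th17, and 95 and 46 in naive libraries. Id1, another Id gene, rose in Th17 against naive cells at a low level (3.78 ± 0.199 CPM in Th17 and 1.06 ± 0.421 CPM in naive cells).

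Among 12 effector factors set against the naive factors, 9 were higher and 3 lower in Th17 against naive cells, 8 higher and 2 lower in Treg against naive cells, and 2 higher and 9 lower in Treg against Th17 cells. Their median log2 fold changes were 2.25, 1.45 and -1.49. Beside them, 29.3% of all tested genes were higher and 28.4% lower in Th17 against naive cells. The shares were 23.6% and 19.9% in Treg against naive cells, and 19.0% and 19.4% in Treg against Th17 cells. Prdm1, which encodes Blimp-1 and is a known target of Bach2 repression, fell in Treg (0.723 ± 0.213 CPM) and Th17 cells (0.564 ± 0.419 CPM) against naive cells (7.06 ± 0.888 CPM). Batf, an AP-1 factor, was lower in Treg (9.10 ± 1.37 CPM) than in Th17 cells (101 ± 1.40 CPM), with 42.3 ± 1.56 CPM in naive cells. Tbx21 and Gata3, the factors of the Th1 and Th2 lineages, were higher in Treg (11.3 ± 1.64 and 31.8 ± 3.60 CPM) than in Th17 cells (0.643 ± 0.378 and 3.89 ± 2.25 CPM), with 1.91 ± 0.328 and 35.8 ± 2.67 CPM in naive cells.

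Of 20 naive and memory-like surface and state genes, 3 were higher and 16 lower in Th17 against naive cells (median log2 fold change -1.82). In Treg against naive cells 4 were higher and 10 lower (median -0.57), and in Treg against Th17 cells 11 were higher and 3 lower (median 0.64). The shares of all tested genes called higher and lower were 29.3% and 28.4%, 23.6% and 19.9%, and 19.0% and 19.4%, in the same order. The list and the FoxO targets have genes in common, such as Ccr7, Il7r and S1pr1. Dapl1, a marker of naive T cells, averaged 0.194 ± 0.112 CPM in Treg, 0.215 ± 0.0764 CPM in Th17 and 107 ± 17.7 CPM in naive cells. Klf3, a Krüppel-like factor, was higher in Treg (131 ± 4.77 CPM) than in Th17 cells (4.40 ± 1.45 CPM), with 196 ± 27.2 CPM in naive cells. Myb, a factor of progenitor and memory T cells, rose in Treg (73.2 ± 1.06 CPM) and Th17 cells (76.3 ± 16.5 CPM) against naive cells (29.6 ± 3.68 CPM).

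**Figure D4:**
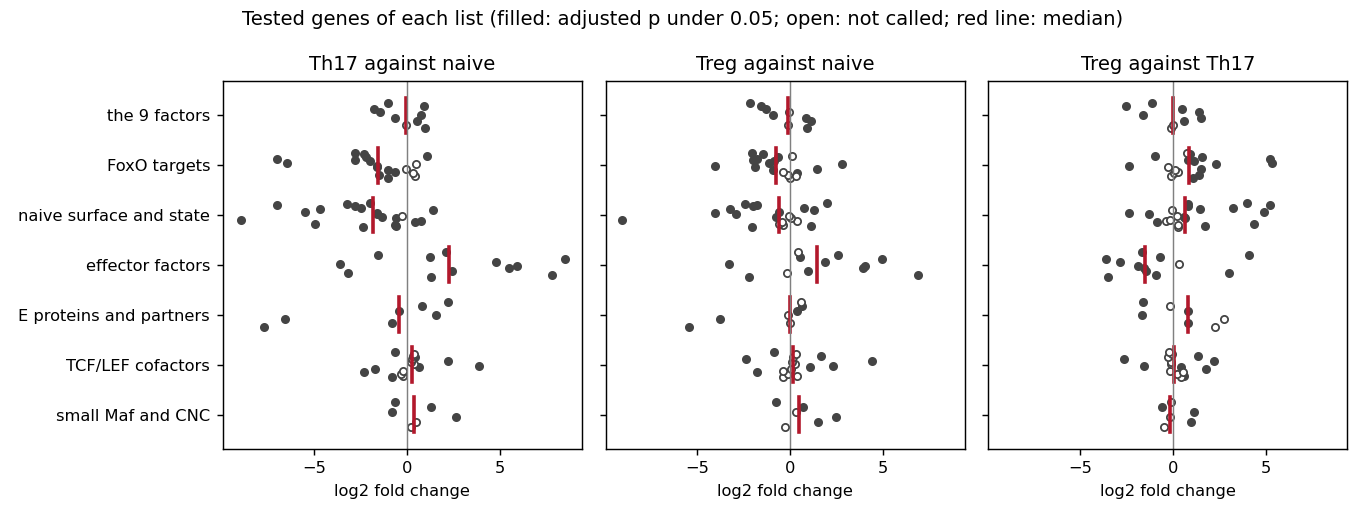
Log2 fold change (horizontal axis) of the tested genes of 7 lists in Th17 against naive, Treg against naive and Treg against Th17 cells, with filled points for adjusted p under 0.05, open points for the rest and a red line at each list's median. The fitted values of genes near 0 counts in a group, such as Cbfa2t3 and Lmo2, depend on the prior count. The 9 factors spread to both sides of 0, while FoxO targets have medians of -1.57, -0.75 and 0.87.

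Levels between factors were compared per kilobase of gene length (RPKM), since the genes differ in length. In Treg cells the order was Tcf7 (102 ± 24.8 RPKM), Foxp1 (35.6 ± 1.28), Id3 (28.1 ± 4.79), Lef1 (25.1 ± 0.369), Bach2 (24.1 ± 3.34), Foxo1 (22.9 ± 2.64), Id2 (21.8 ± 4.52), Foxo3 (20.0 ± 2.78) and Satb1 (13.0 ± 0.151), where neighbours from Id3 to Foxo3 overlapped. In Th17 cells the order was Tcf7 (221 ± 79.7 RPKM), Satb1 (73.7 ± 3.34), Id2 (67.5 ± 21.8), Bach2 (25.4 ± 1.21), Foxo1 (23.1 ± 1.58), Lef1 (17.5 ± 2.12), Foxo3 (13.0 ± 0.800), Foxp1 (12.4 ± 0.559) and Id3 (10.8 ± 2.57). Satb1 and Id2 overlapped there, as did Foxo3 with Foxp1 and Foxp1 with Id3. In naive cells the order was Tcf7 (446 ± 70.8 RPKM), Lef1 (60.1 ± 2.76), Id2 (40.5 ± 14.8), Satb1 (38.5 ± 4.62), Id3 (29.6 ± 9.76), Foxo1 (24.3 ± 4.67), Foxp1 (19.7 ± 0.247), Bach2 (12.9 ± 3.87) and Foxo3 (9.09 ± 1.61), where neighbours from Id2 to Foxo1 overlapped, as did Bach2 with Foxo3. Tcf7 led in every type, and Satb1 was last in Treg and next to Tcf7 in Th17 cells. The table's gene length is the union of all exons. It is 19027 bases for Satb1, whose longest coding transcript has 6243 bases, so its level per kilobase, and its place in the order, depend on the length used.

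Between types, Satb1 varied most, over a range of 2.50 on the log2 CPM scale, followed by Tcf7 (2.14), Lef1 (1.78), Id2 (1.60), Foxp1 (1.52), Id3 (1.43), Foxo3 (1.14) and Bach2 (1.00). Foxo1 varied by 0.0788, less than the 0.394 between its naive libraries. Among the 9 factors the closest pair of profiles was Bach2 and Foxo3, with a root mean square difference of 0.307 (log2 CPM centred over 6 libraries), and the farthest was Satb1 and Foxp1 (1.65). Tcf7 and Lef1 differed by 0.703 and Id2 and Id3 by 1.26. Among 7565 other well-expressed genes, the nearest to Tcf7 were Zfp287 (0.237) and Cd4 (0.256), to Lef1 Ppcdc (0.0551) and Metap1d (0.0703), and to Satb1 Tuba1a (0.257) and Tagap (0.276). The nearest to Bach2 were Rad54l2 (0.0711) and Tesk1 (0.0724), to Foxp1 Smug1 (0.0644) and Suclg2 (0.0840), and to Foxo3 Trappc9 (0.0659) and Stk40 (0.0782). The nearest to Foxo1 were Baz2a (0.0399) and Chd8 (0.0410), to Id2 Susd3 (0.179) and Ska2 (0.253), and to Id3 Psmb8 (0.129) and Sla2 (0.148). Cd4 averaged 240.4 ± 6.37 CPM in Treg, 455 ± 144 CPM in Th17 and 743 ± 55.6 CPM in naive cells, the same order as Tcf7.

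In all 19 annotated genes overlap 6 of the factors and were counted as genes of their own, and none overlaps Foxo3, Id2 or Id3. At Tcf7, the antisense gene A630014C17Rik (chromosome 11, 52276055 to 52286179, opposite strand) shares no annotated exon base with it and had 79 counts in Treg, 140 in Th17 and 506 in naive libraries. It fell in Treg (log2 fold change -2.93, edgeR adjusted p = 2.44e-06) and Th17 cells (-2.16, adjusted p = 1.63e-05) against naive cells. The lincRNA gene Gm26551, also overlapping Tcf7, had 62 counts in Treg, 173 in Th17 and 571 in naive libraries. At Lef1, the antisense gene Gm43352, which shares 1208 exon bases with it, had 71 counts in Treg, 36 in Th17 and 124 in naive libraries, and Gm42449 had 13, 13 and 95. At Satb1, 5 unclassified transcripts on its own strand lie within the gene, and among them E430014B02Rik had 29 counts in Treg, 311 in Th17 and 431 in naive libraries. E430014B02Rik fell in Treg against naive cells (-4.12, adjusted p = 2.55e-06), and in Th17 against naive cells it was not called (-0.77, adjusted p = 0.0664) where Satb1 itself rose. The others in Treg, Th17 and naive libraries were Gm36931 with 51, 313 and 180 counts, C230085N15Rik with 25, 226 and 244, Gm37248 with 4, 41 and 86, and 5830444F18Rik with 5, 20 and 24. On the opposite strand, Gm6934 had 161 counts in Treg, 461 in Th17 and 367 in naive libraries. At Bach2, the intronic transcript Bach2it1 had 43 counts in Treg, 35 in Th17 and 119 in naive libraries, and fell in Treg (-1.72, adjusted p = 0.00839) and Th17 cells (-2.08, adjusted p = 0.00185) where Bach2 rose. The antisense gene Bach2os, which shares 537 exon bases with Bach2, had 117 counts in Treg, 185 in Th17 and 101 in naive libraries and was not called, and Gm24371 had 3, 3 and 6. At Foxp1, Gm20705 had 80 counts in Treg, 12 in Th17 and 40 in naive libraries, Gm20696 had 28, 2 and 37, and the miRNA genes Gm22328 and Gm49348 had 3 and 0 counts in Treg libraries and 0 elsewhere. At Foxo1, Gm38034 had 5 counts in Treg, 5 in Th17 and 17 in naive libraries, and the antisense gene Gm20402 had 0 in all. No source states whether counting used strand, so reads over shared bases cannot be assigned to a strand. The counts of these genes are small beside those of the factors. They do not show how many reads over shared bases a factor gained or lost.

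Some other cell types also express these factors, and in bulk libraries fewer cells of a type and less RNA per cell cannot be told apart. Of 12 B cell markers, 12 fell in Th17 against naive cells and 11 in Treg against naive cells. Their summed level was 507 to 643 CPM in Treg, 26.8 to 36.4 CPM in Th17 and 517 to 543 CPM in naive libraries. Most of the sum was Ighm (563 ± 92.7 CPM in Treg and 444 ± 10.6 CPM in naive cells), while the defining marker Ms4a1 had 0 counts in Treg and averaged 9.27 ± 2.24 CPM in naive libraries. Of 8 thymocyte markers 6 were tested, with 0 higher and 3 lower in Th17 and 2 higher and 4 lower in Treg against naive cells. They summed to 93.1 to 115 CPM in Treg, 88.3 to 140.2 CPM in Th17 and 294 to 344 CPM in naive libraries, with Rag2 and Ptcra at 0 counts in Th17 libraries and Rag1 at 83 counts over both Treg libraries. Of 12 myeloid and dendritic markers, 10 were lower and 0 higher in each type against naive cells. They summed to 62.0 to 73.3 CPM in Treg, 70.0 to 74.3 CPM in Th17 and 96.8 to 128 CPM in naive libraries, with Cd14 at 0 counts in Treg libraries. Most of the sum was Cst3 (62.2 ± 5.54 CPM in Treg, 69.7 ± 2.44 CPM in Th17 and 66.5 ± 14.9 CPM in naive cells). Lyz2 averaged 0.847 ± 1.12 CPM in Treg, 0.482 ± 0.682 CPM in Th17 and 14.0 ± 0.249 CPM in naive cells. Of 8 NK and gamma-delta markers, 7 were lower in Th17 and 5 lower and 1 higher in Treg against naive cells. They summed to 65.6 to 89.4 CPM in Treg, 24.5 to 40.6 CPM in Th17 and 53.6 to 91.3 CPM in naive libraries, with Ncr1 and Klrb1c at 0 counts in Treg and Th17 libraries. Most of the Treg sum was Nkg7 (54.8 ± 15.9 CPM in Treg, 0.349 ± 0.0370 CPM in Th17 and 8.60 ± 3.20 CPM in naive cells). Most of the Th17 sum was Klrd1 (4.13 ± 0.257 CPM in Treg, 30.5 ± 11.2 CPM in Th17 and 21.2 ± 8.39 CPM in naive cells). Of 13 T cell markers, 1 was higher and 11 lower in Th17 and 12 lower in Treg against naive cells. They summed to 3833 to 3857 CPM in Treg, 3636 to 3959 CPM in Th17 and 7749 to 9561 CPM in naive libraries. Naive libraries were thus highest in this sum, and Treg and Th17 libraries overlapped in it. Trbc2, Trac and Trbc1 averaged 1249, 891 and 677 CPM in naive libraries, while Cd5 averaged 441 CPM there and 782 CPM in Th17 libraries. Whether the sum bears on the levels of Tcf7 and Lef1 was not tested. Of 10 proliferation genes, 10 rose in Th17 against naive cells and 9 in Treg against naive cells, and Mki67 averaged 307 ± 100.3 CPM in Treg, 1147 ± 31.4 CPM in Th17 and 10.3 ± 4.84 CPM in naive cells. Beside these counts, 29.3% of all tested genes were higher and 28.4% lower in Th17 against naive cells. In Treg against naive cells the shares were 23.6% and 19.9%. The part of other cell types and of proliferation in the results was not tested.

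The authors' deposited table lists fold changes of Treg and Th17 against naive cells for all 9 factors. In the authors' deposited table, 8 factors have an adjusted p under 0.05 in Th17 and 7 in Treg cells. For Satb1 the authors' deposited table gives a log2 fold change of -1.54 in Treg and 1.00 in Th17 cells, and for Foxo1 -0.06 and -0.01.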

How the data were processed

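RNA of Treg, Th17 and naive T cells was purified with the RNeasy Micro kit and libraries were built with a SMARTER kit for mRNA, per the labels' protocols. DESeq2, cutadapt, STAR and the build mm10 appear in the submitters' processing notes, without versions. The counting tool and its strand setting were not given in the sources used here. Whole-number gene counts per library, not normalized, were deposited by the authors together with their own log2 fold changes and p-values. A further 6 per-library columns (FPKM) were not used. For 98.1% of the table's genes, coordinates equal GENCODE release 21 for mouse (mm10). Column names give a cell type with 1 or 5, whereas titles give 1 or 2. Columns were therefore assigned to a type and to no particular sample.

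Tests used edgeR 4.0.16 under R 4.3.3: TMM scaling, filterByExpr at a minimum count of 10, and a quasi-likelihood F-test from 1 model of all 6 libraries, with 3 residual degrees of freedom. P-values were adjusted over all tested genes by Benjamini-Hochberg, and a gene under 0.05 was called. CPM and RPKM use TMM-scaled library sizes, and RPKM also the table's gene length. The SE was derived from F and the log2 fold change, and the approximate intervals from the SE. Values are mean ± SD over 2 libraries. The floor of 3 counts, 0.161 to 0.207 CPM, covers counting error only.

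The members, lists and tests were chosen with earlier results of these data known. All 9 factors are named, with the genes that overlap them. From each list at most 4 called genes with the largest change per comparison are named, and some of these are not reported here. Their values in other types, and the marker genes given, were chosen after the values were seen. Likeness used log2 CPM (prior count 2) of genes at or above the median level, predicted genes left out. Alternatives were other scalings, filters and tests (limma 3.58.1 for voom, DESeq2 1.42.0), a replicate block and leaving out each library.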

Additional observations from a re-analysis of the deposited data

How the results depend on the processing

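Of 216 log2 fold changes of the 9 factors under 8 alternatives (other scalings, filters and tests, only the 2 groups compared, the library number as a block), 213 kept their direction and their side of the threshold. The other 3 turned sign without being called, all with scaling by total count: Foxo1 in Th17 (0.16) and Treg (0.09) and Id3 in Treg against naive cells (0.12). That scaling shifts the median log2 fold change of all genes by 0.23 for Th17 and by 0.18 for Treg cells, both against naive cells. Higher genes then make up 62.6% and 67.0% of those called, beside 50.8% and 54.3% with TMM. Without 1 library, 85 of 108 values kept both, 14 missed the threshold and 9 turned sign. Those that turned sign went from negative to positive and were not called. Over all fits without 1 library, Foxo1 ranged from -0.25 to 0.13 in Th17 against naive cells. It ranged from -0.26 to 0.13 in Treg against naive and from -0.13 to 0.09 in Treg against Th17 cells. Id3 ranged from -0.37 to 0.32 in Treg against naive cells, and Bach2 from -0.22 to 0.05 in Treg against Th17 cells. Without 1 library, the factors called higher numbered 2 to 4 in Th17 against naive, 3 to 3 in Treg against naive and 2 to 4 in Treg against Th17 cells, and those called lower 3 to 4, 3 to 4 and 2 to 3. All genes called numbered 7130 to 8369, 4613 to 6325 and 4118 to 4694, with fewer libraries in the fit.

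Columns of different types share the numbers 1 and 5, and library 1 minus library 5 correlated between types at 0.0334, 0.126 and 0.00466 across genes. The numbers were not taken as pairs, but a low correlation over all genes cannot exclude pairs. With the replicate block, the factors called were the same in number in each direction. In all 9116, 6974 and 6296 genes were then called, beside 8973, 6748 and 5974 without it. The edgeR adjusted p of Id2 against naive cells was 0.000589 in Th17 and 0.000344 in Treg cells with the block, beside 0.0214 and 0.0114 without it.

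With the length of the longest coding transcript, an alternative chosen after seeing the data, the mean Tcf7 to Lef1 ratio was 1.71 in Treg, 5.23 in Th17 and 3.14 in naive libraries, the Id2 to Id3 ratio 0.685, 5.49 and 1.20, and the Foxo1 to Foxo3 ratio 1.04, 1.61 and 2.42. The order of types is fixed by construction there. Adding 1 to each count moved no ratio by more than its spread. With 2 libraries per type, calls that 1 library decides are named beside each factor.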
